A study of Mus musculus with 5 samples.

Results

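A set of 38 genes of inflammatory signalling was followed in mandibular condyle cartilage, the joint surface of the jaw in the temporomandibular joint. It holds cytokines of the interleukin-1, interleukin-6 and tumour necrosis factor (TNF) families with their receptors, enzymes that make prostaglandins and nitric oxide, chemokines, acute-phase proteins, Toll-like receptors, and the subunits and inhibitors of the transcription factor NF-kB. A gene counted as measured when a row of the array was annotated with its symbol alone, and this held for 35 of the 38 genes, among 19938 genes in all. Il1r1, Ptgs1 and Nfkb1 were not analysed here. Each of the 35 genes had a single row, so no choice between rows was needed.

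The arrays came from 2 mice labelled DDR-1-KO, a knockout of the collagen receptor tyrosine kinase Ddr1 by its label, and from 3 wild-type mice, all of strain 129/Sv. Each array carried total RNA extracted directly from the cartilage of a mouse with its own number, and the mice are called knockout 2 and 5 and wild type 3, 4 and 6. The labels give no treatment, age or sex and do not describe the knockout allele, and no label says that animals were pooled. The array names carry 2 dates, 1 shared by knockout 2 and wild type 3 and the other by knockout 5 and wild types 4 and 6. Levels are log2 signals on the Affymetrix mouse gene 1.0 ST array, and a change is knockout minus wild type on that scale.

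In chondrocytes and synovial cells, interleukin-1 and TNF bind their receptors at the cell surface, and bacterial products or matrix fragments bind Toll-like receptors. These signals run through adaptor proteins and kinases to the IkB kinase complex, which marks the inhibitor IkB-alpha for destruction and frees NF-kB to enter the nucleus. NF-kB then drives chemokines, Ptgs2, Nos2, interleukin-6 and its own inhibitors, and in joint cartilage this pathway is known for its link to matrix loss.

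NF-kB binds DNA at the kappa-B site, a 10-base consensus that opens with 3 G and a purine, holds 2 free bases, and closes with 2 pyrimidines and 2 C. RefSeq windows (GRCm38.p6) from 250 bases before to 50 bases after the gene start were found for 27 of the 35 measured genes and searched on both strands, with matches allowed to overlap. The consensus was in at least 1 window of 9 of these genes, 33.3%, and of 11.0% of the 15614 tested genes with a window. Counted by window, it was in 8.46% of all 32851 windows. Many of these genes were put in the set as known NF-kB targets, so this count is a description. The stretches below show the feedback inhibitors Nfkbia and Tnfaip3, the subunit gene Nfkb2, the neighbouring chemokine genes Cxcl1 and Cxcl2, and, without a match in their windows, the 2 genes whose changes came nearest to or passed the test threshold, Tnfrsf1b and Ptges. Capitals mark matches to the consensus on either strand.
Nfkbia: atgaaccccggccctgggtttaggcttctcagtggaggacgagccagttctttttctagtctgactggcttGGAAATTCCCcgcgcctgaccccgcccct
Tnfaip3: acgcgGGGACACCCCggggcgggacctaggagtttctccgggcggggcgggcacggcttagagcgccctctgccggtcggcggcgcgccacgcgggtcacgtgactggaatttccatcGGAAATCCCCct
Nfkb2: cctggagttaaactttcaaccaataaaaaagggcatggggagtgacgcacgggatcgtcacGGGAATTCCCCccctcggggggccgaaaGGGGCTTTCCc
Cxcl1: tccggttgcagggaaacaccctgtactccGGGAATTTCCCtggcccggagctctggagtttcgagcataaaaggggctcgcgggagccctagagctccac
Cxcl2: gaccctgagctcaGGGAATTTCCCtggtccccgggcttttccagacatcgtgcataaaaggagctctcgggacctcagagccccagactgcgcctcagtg
Tnfrsf1b: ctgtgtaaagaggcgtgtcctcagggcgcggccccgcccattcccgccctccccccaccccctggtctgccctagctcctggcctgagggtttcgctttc
Ptges: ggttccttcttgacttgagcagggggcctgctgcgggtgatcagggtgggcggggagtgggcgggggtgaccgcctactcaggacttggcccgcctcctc

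The stretches lie at chr12:55492648-55492747 on the minus strand for Nfkbia, chr10:19015411-19015540 on the minus strand for Tnfaip3, chr19:46304637-46304736 on the plus strand for Nfkb2, chr5:90891145-90891244 on the plus strand for Cxcl1, chr5:90903789-90903888 on the plus strand for Cxcl2, chr4:145246871-145246970 on the minus strand for Tnfrsf1b and chr2:30903298-30903397 on the minus strand for Ptges. All end just before a RefSeq start of the gene except that of Cxcl2, which ends at -11. There the same run of capitals as in Cxcl1 is seen with its flank. Nfkb2 has more than 1 window and the first is shown, and the Tnfaip3 window was picked from those with a match. The 9 genes with a match had a median change of 0, from -0.47 to 0.33, and the 18 without one had a median of -0.039, from -0.56 to 0.43.

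Over all genes tested, 744 passed limma's adjusted p of 0.05, 3.73%, with 309 higher and 435 lower in knockout. The split was 343 higher and 292 lower with each array centred on its median, and 90 higher and 68 lower with arrays centred and scaled. The wild-type arrays correlated with each other across genes at 0.984 to 0.993, the knockout arrays with each other at 0.803, and knockout 2 stood farthest from wild type at 0.814 to 0.837. Its gene values also had the narrowest spread, with an SD of 0.802 against 0.991 to 1.02 in wild type. Their median was the lowest, at 5.05 against 5.14 in knockout 5 and 5.16 to 5.17 in wild type. Probe summaries can coincide exactly between arrays, and all 3 wild-type arrays had one and the same value in 39.1% of all genes and in 18 of the 35 inflammatory genes. A p-value of such a gene does not measure the spread between wild-type mice. Ddr1 itself was at 5.96 and 5.80 in knockout and at 6.02 on each wild-type array (adjusted p = 0.377), and the probes' positions were not used, so it does not check the labels. Of 15 chondrocyte markers 14 were below 0 in change, 3 of which fell (Sox9, -0.42; Col9a3, -0.61; Comp, -0.41), though none passed after cyclic loess, at -0.26, -0.34 and -0.22. Their list had a summed linear signal of 885 and 1051 in knockout and 1196 to 1206 in wild type.

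Among the 35 inflammatory genes, 1 rose in knockout cartilage, 0 fell and 34 did not pass the test. The gene that rose was Tnfrsf1b, which encodes TNF receptor 2, the receptor found mainly on immune and endothelial cells. The share called was 2.86%, beside 3.73% of all genes, or 1.55% higher and 2.18% lower. At an unadjusted p under 0.05 in limma there were 6 of the 35 (Il6, Il6ra, Tnfrsf1b, Ptges, Ccl3 and Nfkb2), or 17.1%, beside 18.2% of all genes. The median change was -0.040, beside -0.0083 over all genes, and single changes ran from -0.56 for Ptges to 0.45 for Ccl5. Both knockout mice lay above all wild-type mice for 4 genes and below them for 5, in all 9 of 35, while the groups did not overlap in 31.5% of all genes, with knockout higher in 13.0% and lower in 18.6%. In tissue RNA of this kind, fewer cells of a type and less RNA per cell cannot be told apart.

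**Figure D1:**
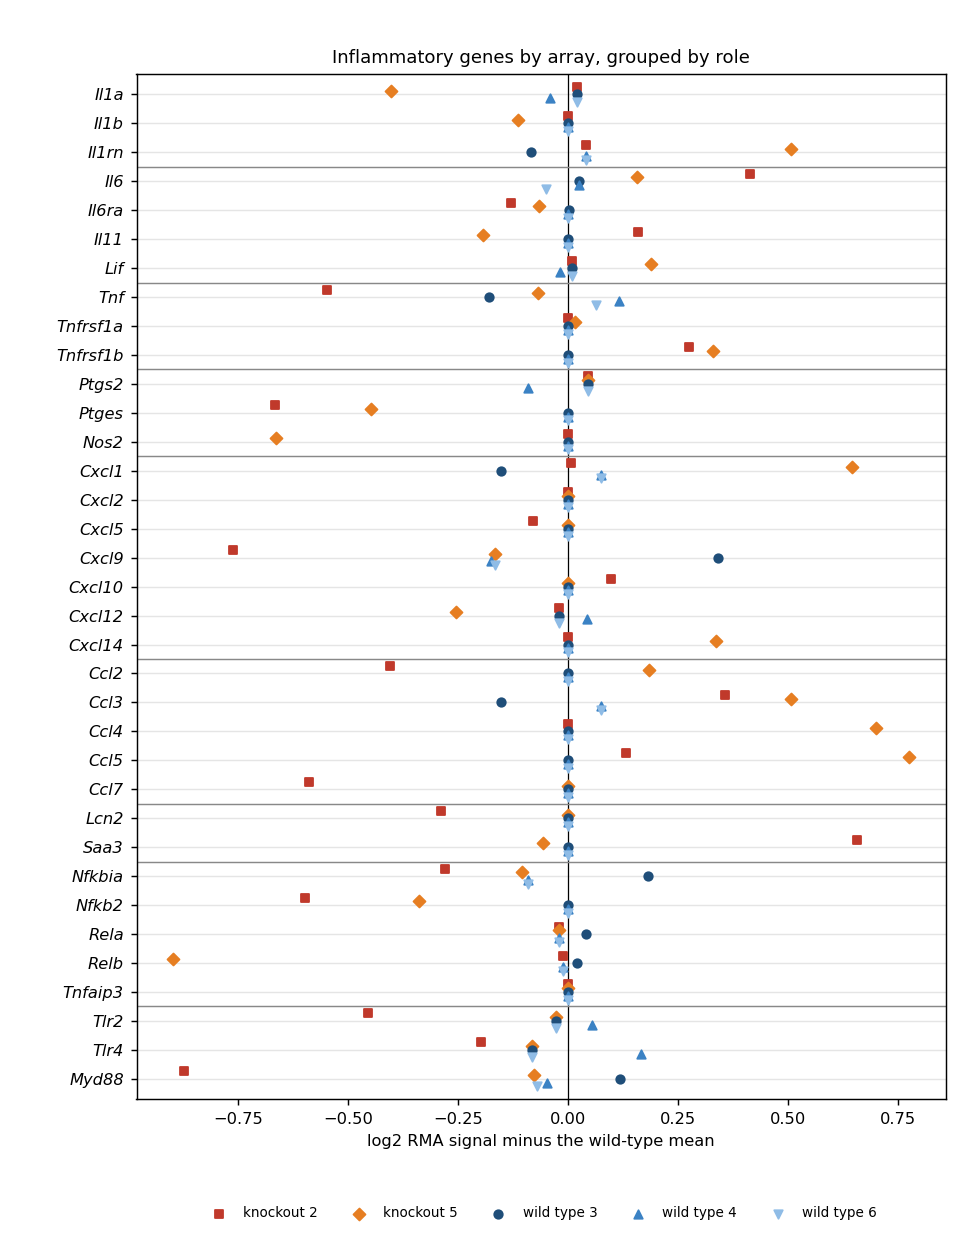
Log2 signal of each of the 35 inflammatory genes on each array, minus that gene's wild-type mean, with 1 symbol per array and lines between groups of genes by role. Wild-type symbols share 1 horizontal position for 18 genes, and for many genes a single knockout array stands apart while the other sits on the wild-type value.

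In the TNF group, Tnfrsf1b (gene ID 21938) was at 5.46 in knockout 2 and 5.52 in knockout 5, while each of the 3 wild-type arrays read 5.19. Both knockout mice were above wild type, by about the same amount. It gives a change of 0.30 (SE 0.024; adjusted p = 0.0267 in limma), a 1.23-fold higher signal, and it was 0.28 between the mice of the first array date and 0.33 between those of the second. The call was lost with the array date as a block (adjusted p = 0.0671), after cyclic loess (adjusted p = 0.0648, change 0.40) and without wild type 3, 4 or 6 (adjusted p = 0.145, 0.183 and 0.205). An exact two-sided permutation test of 2 against 3 arrays gives p = 0.2 for it, the smallest this design allows. The mean level of Tnfrsf1b was above the median of gene means (5.13). It was below the 95th percentile of olfactory and vomeronasal receptor genes (5.57).

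Tnfrsf1a, the TNF receptor present on most cells, was at 5.74 on 4 arrays and at 5.76 in knockout 5, a change of 0.0082 (adjusted p = 0.763). Tnf, the cytokine that binds both receptors, was at 5.13 and 5.61 in knockout and at 5.49, 5.79 and 5.74 in wild types 3, 4 and 6. Its groups overlapped, and the change of -0.31 did not pass (adjusted p = 0.399). The 3 genes of this group therefore held 1 rise and 2 genes that did not pass.

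The interleukin-1 group had no gene past the threshold among 3. Il1a and Il1b encode the 2 interleukin-1 cytokines, and Il1rn the antagonist that blocks their receptor. Il1a read 4.61 in knockout 2 and 4.18 in knockout 5, against 4.61, 4.55 and 4.61 in wild type. Il1b was at 4.55 in knockout 5 and at 4.66 on the other 4 arrays. Il1rn read 4.92 in knockout 2 and 5.39 in knockout 5, against 4.80, 4.92 and 4.92 in wild type. For all 3 genes knockout 2 held a wild-type value exactly and only knockout 5 lay outside the wild-type range, below it for the cytokines and above it for the antagonist. The changes were -0.19, -0.057 and 0.27, with adjusted p from 0.399 to 0.415.

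No gene of the interleukin-6 group passed. Groups did not overlap for 2 of its 4 genes, beside 31.5% of all genes. Il6, a cytokine that drives the acute-phase response, was at 3.01 and 2.76 in knockout and at 2.63, 2.63 and 2.55 in wild type, which gives 0.29 (adjusted p = 0.248) as deposited, but -0.20 under cyclic loess and -0.30 with quantile normalisation. Il6ra, the receptor subunit that binds it, was at 6.50 and 6.56 in knockout and at 6.63, 6.62 and 6.62 in wild type, which gives -0.098 (adjusted p = 0.188) as deposited, but 0.14 under cyclic loess. For both genes the sign thus changes with the scaling, and neither direction can be given. Il11, a cytokine that signals through the same shared chain, was at 5.90 in knockout 2 and 5.55 in knockout 5 around a wild-type value of 5.74 on all 3 arrays. Lif, another cytokine of the family, was at 5.03 and 5.21 in knockout against 5.03, 4.998 and 5.03 in wild type (change 0.0995, adjusted p = 0.399).

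Ptges, the inducible enzyme that makes prostaglandin E2, had the change farthest below 0. Its mean level was below the median of gene means (5.13) and the 95th percentile of olfactory and vomeronasal receptor genes (5.57), as for Il6 and Ccl3. Ptges was at 4.55 in knockout 2 and 4.77 in knockout 5, while each wild-type array read 5.21. Both knockout mice were below wild type. The change was -0.56 (SE 0.075), and limma's adjusted p of 0.0572 missed the threshold. It was -0.67 between the mice of the first array date, -0.45 between those of the second and -0.52 after cyclic loess, and it passed with each array centred on its median (-0.48, adjusted p = 0.0437). Ptgs2, the inducible cyclooxygenase that supplies its substrate, was at 5.48 on 4 arrays and at 5.34 in wild type 4. Nos2, the inducible nitric oxide synthase, was at 4.22 in knockout 5 and at 4.88 on the other 4 arrays (change -0.33, adjusted p = 0.399).

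The 5 CC chemokines, which draw monocytes, lymphocytes and other leukocytes, had a median change of 0.35 with no gene past the threshold. Against the wild-type mean, their median was 0 in knockout 2 and 0.51 in knockout 5. Both knockout mice lay above wild type in 2 of the 5, Ccl3 and Ccl5, beside 13.0% of all genes. The 5 genes fell into 2 pairs of neighbouring genes and Ccl5. Ccl3 was at 4.85 and 4.996 in knockout and at 4.34, 4.57 and 4.57 in wild type, so both knockout mice were above wild type. Its change was 0.43 (SE 0.104, adjusted p = 0.148), 0.41 after cyclic loess, and 0.51 and 0.43 within the 2 array dates. Ccl4, its neighbour, was at 6.04 in knockout 5 and at 5.34 on the other 4 arrays. Ccl5, which attracts T cells, read 6.34 in knockout 2 and 6.99 in knockout 5 against 6.21 on each wild-type array. Both knockout values were higher than wild type, by 0.13 in knockout 2 and by 0.78 in knockout 5 (change 0.45, SE 0.218, adjusted p = 0.399).

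The other neighbouring pair, the monocyte attractants Ccl2 and Ccl7, was low in knockout 2 alone. Ccl2 read 5.31 in knockout 2 and 5.90 in knockout 5, against 5.72 on each wild-type array. Ccl7 was at 4.89 in knockout 2 and at 5.48 on the other 4 arrays. Ccl2 thus had the knockout mice on opposite sides of wild type, and its mean change of -0.11 (adjusted p = 0.735) turned to 0.030 after cyclic loess.

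None of the 7 CXC chemokines passed, and none had groups without overlap. The neutrophil attractant Cxcl1 read 6.46 in knockout 2 and 7.10 in knockout 5, against 6.30, 6.53 and 6.53 in wild type (change 0.33, SE 0.234, adjusted p = 0.402). Its neighbour Cxcl2, also a neutrophil attractant and with the same letters at its kappa-B match, was at 4.53 on all 5 arrays. Cxcl5 was at 4.62 in knockout 2 and 4.70 on the other 4 arrays. Of the interferon-induced T cell attractants, Cxcl9 was at 4.42 and 5.01 in knockout and at 5.52, 5.003 and 5.01 in wild type, with wild type 3 the highest array, and Cxcl10 was at 4.87 in knockout 2 and 4.77 on the other 4 arrays. The constitutive chemokines also moved on single arrays. Cxcl12, which holds blood-forming cells in the marrow, was at 4.51 in knockout 5 against 4.74 to 4.81 elsewhere, and Cxcl14 was at 5.70 in knockout 5 against 5.36 on the other 4 arrays.

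The 2 acute-phase genes differed in which way knockout 2 stood apart. Lcn2, an iron-trapping protein of neutrophils and stressed chondrocytes, was at 4.63 in knockout 2 and 4.92 on the other 4 arrays. Saa3, a serum amyloid A protein made locally in inflamed tissue, was at 4.30 in knockout 2, 3.59 in knockout 5 and 3.65 on each wild-type array. Both adjusted p values missed the threshold (0.399 and 0.435).

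**Figure D2:**
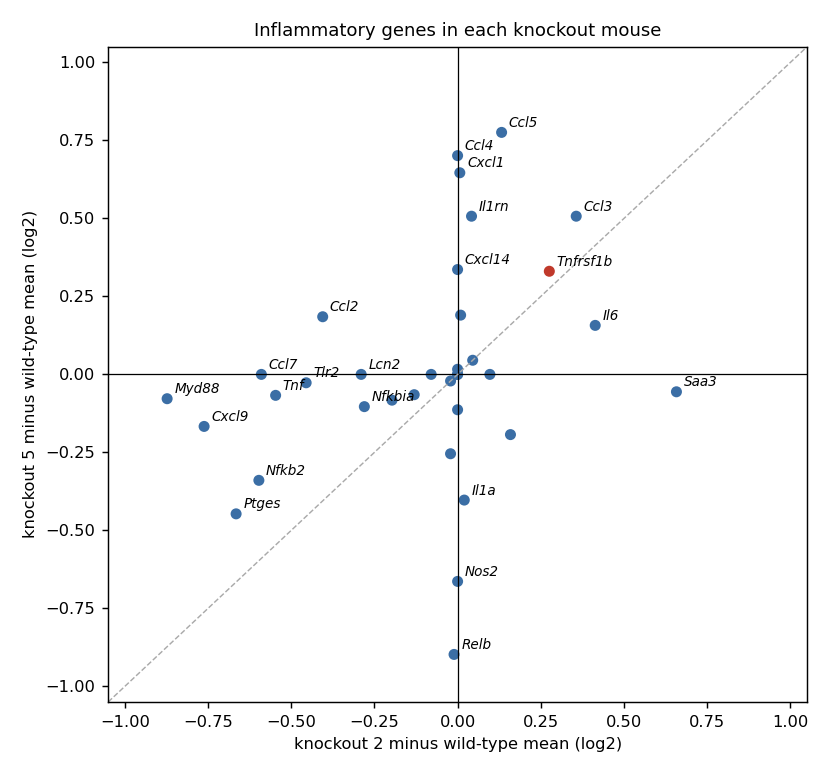
Each point is an inflammatory gene, placed by its log2 signal in knockout 2 (horizontal) and in knockout 5 (vertical) minus the wild-type mean, with Tnfrsf1b in red and the dashed line marking equal differences. Many genes lie along 1 of the axes, such as Ccl4, Nos2 and Relb at 0 or near it for knockout 2 and Ccl7 and Lcn2 at 0 for knockout 5.

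Over the whole set, 8 genes were outside the wild-type range in knockout 2 alone, 11 in knockout 5 alone, 12 in both and 4 in neither. Among all genes the same shares were 24.7%, 17.1%, 45.4% and 12.8%, beside 22.9%, 31.4%, 34.3% and 11.4% here. Knockout 2 had exactly a wild-type value in 14 of the 35 genes, and knockout 5 in 11. In 3 genes, Il11, Ccl2 and Saa3, the knockout mice lay on opposite sides of the wild-type range, which was so for 13.9% of all genes.

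No NF-kB subunit or inhibitor passed the test among 5, with 4 changes below 0 and 1 of 0 as deposited; that of Rela was 0.091 and that of Tnfaip3 0.11 after cyclic loess. Nfkb2, the subunit gene of the non-canonical branch, read 5.57 in knockout 2 and 5.82 in knockout 5, against 6.16 on each wild-type array. Both knockout mice were below wild type, with a change of -0.47 (SE 0.088, adjusted p = 0.097) that shrank to -0.30 under cyclic loess and to -0.28 when arrays were centred and scaled. Relb, the partner of Nfkb2 in that branch, read 5.96 in knockout 2 and 5.07 in knockout 5, against 5.99, 5.96 and 5.96 in wild type. Knockout 5 was low for Relb while knockout 2 held a wild-type value (change -0.45, SE 0.30, adjusted p = 0.399).

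The canonical subunit and the feedback inhibitors, induced by NF-kB itself, varied less. Rela was at 5.43 on 4 arrays and at 5.49 in wild type 3. Nfkbia, which encodes IkB-alpha, was at 4.92 and 5.10 in knockout and at 5.39, 5.11 and 5.11 in wild type, so knockout 5 lay just under the 2 wild-type arrays of its own date, by 0.012. Tnfaip3, the ubiquitin-editing inhibitor A20, was at 5.46 on all 5 arrays.

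The Toll-like receptors and their adaptor did not pass either, and knockout 2 was the lowest array for all 3. Tlr2, a receptor for bacterial lipoproteins, was at 5.37 in knockout 2, 5.80 in knockout 5 and 5.80, 5.88 and 5.80 in wild type. Tlr4, the endotoxin receptor, was at 3.85 and 3.97 in knockout and at 3.97, 4.22 and 3.97 in wild type. Myd88, the adaptor shared by most Toll-like receptors and the interleukin-1 receptor, read 3.98 in knockout 2 and 4.78 in knockout 5, against 4.97, 4.81 and 4.78 in wild type. Its change of -0.48 (SE 0.278, adjusted p = 0.399) was -0.99 between the mice of the first array date and -0.018 between those of the second.

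Other genes of the same pathway were followed on a list of 65, of which 57 were measured. Of these 1 fell, 0 rose and 56 did not pass. The share that fell was 1.75%, beside 2.18% of all genes, with a median change of -0.045 that was 0.018 after cyclic loess. The gene that fell was Tab2, an adaptor that links ubiquitin chains to the kinase Map3k7 (TAK1). Knockout 2 read 4.79 and knockout 5 read 4.82, while each wild-type array read 5.24. The mean level of Tab2 was below the median of gene means (5.13), so it was not tested under either level filter. Its change was -0.43 (SE 0.018, limma's adjusted p = 0.0139), or -0.38 after cyclic loess (adjusted p = 0.0662). The call was lost with the array date as a block (adjusted p = 0.0528), with each array centred on its median (adjusted p = 0.0526) and without wild type 3, 4 or 6 (adjusted p = 0.106, 0.14 and 0.179).

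Tab2 belongs to the 16 measured signal transducers between receptor and NF-kB, and in 8 of these both knockout values were lower than every wild-type value, with none higher. Over all genes the groups did not overlap with knockout lower in 18.6% and with knockout higher in 13.0%. Without overlap, 1 was lower and 2 were higher of the 18 receptors and ligands. For the 7 chemokine receptors these counts were 0 and 2, and for the 16 further subunits, inhibitors and targets 5 and 0. The lists were drawn up with earlier results of these data known, so these counts are a description. The median change of the 16 transducers was -0.16, or -0.17 under cyclic loess and -0.15 when arrays were centred and scaled. It was nearer to 0, at -0.088, when arrays were only centred. Of these transducers 11 had a mean level above the median of gene means, and 3 were above the receptor-gene level (5.57). The following genes were chosen after their values were seen. Tradd, the adaptor of TNF receptor 1, was at 4.98 and 4.64 in knockout and at 5.86, 5.64 and 5.64 in wild type (change -0.90, SE 0.143, adjusted p = 0.0727). Ikbkb, the catalytic IkB kinase of the canonical branch, was at 4.91 and 4.98 in knockout and at 5.63, 5.43 and 5.43 in wild type (change -0.55, SE 0.083, adjusted p = 0.0678).

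The kinases Map3k14 and Map3k7 showed the same placing of the mice. Map3k14, the kinase that starts the non-canonical branch ending in Nfkb2, was at 5.16 and 5.44 in knockout and at 5.83, 5.91 and 5.78 in wild type (change -0.54, adjusted p = 0.106). Map3k7 itself was at 5.03 and 5.33 in knockout and at 5.63, 5.84 and 5.63 in wild type (change -0.51, adjusted p = 0.167). These 4 genes did not pass the test, and after cyclic loess their changes were -0.80, -0.46, -0.41 and -0.40. The other 3 genes with both knockout mice below wild type were Traf2, Tab1 and Ikbkg, at -0.33, -0.26 and -0.072.

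**Figure D3:**
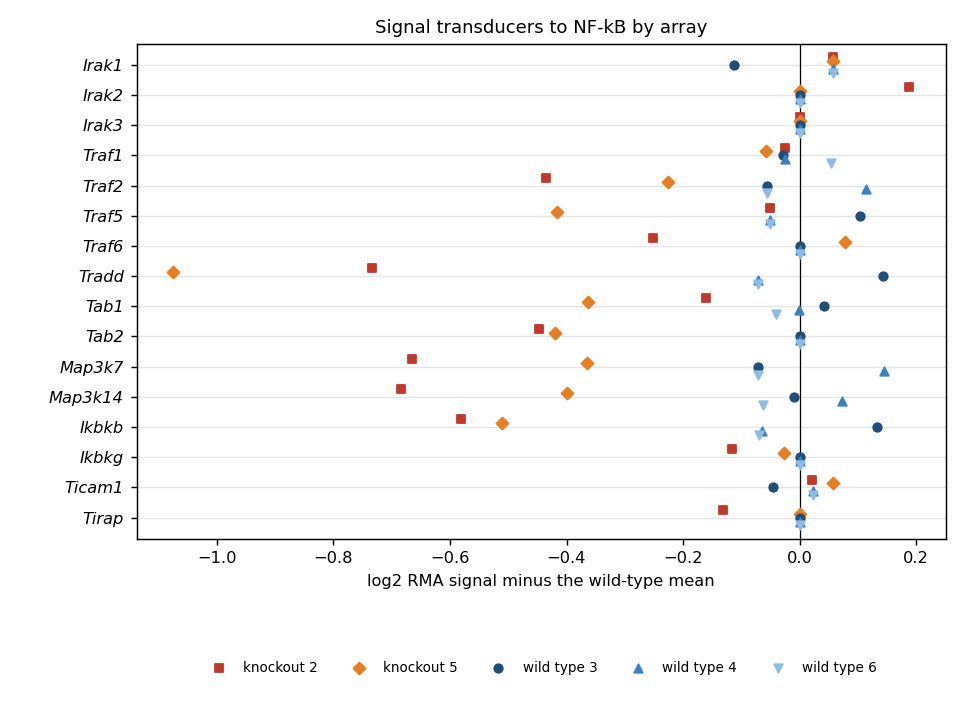
Log2 signal of the 16 measured signal transducers to NF-kB on each array, minus the gene's wild-type mean. Both knockout symbols lie left of all wild-type symbols for 8 genes, among them Tradd, Tab2, Map3k7, Map3k14 and Ikbkb.

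In the other 3 groups of the pathway list no gene passed. Among 18 receptors and ligands the lowest p belonged to Tnfrsf11b, which encodes osteoprotegerin, the decoy receptor that restrains osteoclasts. It was at 5.90 and 5.70 in knockout and at 5.40 on each wild-type array (change 0.39, adjusted p = 0.0847). Among 7 chemokine receptors it belonged to Cxcr2, the receptor for Cxcl1, Cxcl2 and Cxcl5, at 4.82 and 3.73 in knockout against 3.23, 3.34 and 3.50 in wild type (change 0.92, adjusted p = 0.358). Among 16 further subunits, inhibitors and targets it belonged to Socs3, an inhibitor of interleukin-6 signalling, at 6.65 and 6.62 against 6.85, 6.99 and 6.85 (change -0.26, adjusted p = 0.131). That change was 0.0045 after cyclic loess, so the direction for Socs3 rests on the scaling.

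Leukocytes are a source of many of these transcripts, and their markers were read beside them. The 12 measured macrophage and monocyte markers had a summed linear signal of 433 and 440 in knockout and 400 to 412 in wild type, the 13 neutrophil markers 499.8 and 525 against 465 to 487, and the 9 lymphocyte markers 368 and 407 against 329 to 354. None of these markers passed the test, and the lists' median changes were 0.052, 0.043 and 0.12. Lcn2 and Cxcr2 stand in the neutrophil list too, and Cd14 stands in both the macrophage list and the pathway list. Cxcr2 weighs on the neutrophil sum of knockout 2, at 4.82 there against 3.23, 3.34 and 3.50 in wild type. The neutrophil sum without Cxcr2 was not taken, so a higher neutrophil signal in knockout 2 cannot be read from it. Of the macrophage and monocyte markers 8 had a change above 0, 2 below 0 and 2 of 0, of the neutrophil markers 9 above and 4 below, and of the lymphocyte markers 6 above, 2 below and 1 of 0. Over all genes 42.6% had a change above 0. The 2 macrophage markers at 0, named after their values were seen, were Adgre1 and Csf1r, at 4.00 and 5.08 on all 5 arrays. In the mast cell list 1 of 7 genes rose, beside 1.55% of all genes. It was Ms4a2, a chain of the IgE receptor (change 0.998, adjusted p = 0.0226 in limma, and 0.77 with adjusted p = 0.052 after cyclic loess). The list as a whole had a median change of 0, with 3 genes above 0, 2 below 0 and 2 of 0. Its summed signal was 181 and 205 in knockout and 186 to 190 in wild type. No level in this table is 0, and a call of detection above background was not used here. The part of these cells in the chemokine values was not tested.

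The scaling between arrays moved single genes more than the set. The median change of the 35 genes was -0.040 as deposited, -0.049 under cyclic loess, -0.025 when arrays were centred and scaled and 0.033 when they were only centred. Over all genes these medians were -0.0083, 0.013, 0.041 and 0.064. Ccl5 and Cxcl1 were farther above 0 after cyclic loess, at 0.67 and 0.57, and Ptges, Ccl3 and Myd88 stayed within 0.05 of their deposited change. No inflammatory gene passed after cyclic loess, where the share called among all genes was 0.0%, and 8 of the 35 had an unadjusted p under 0.05 in limma. With arrays centred 2 of the 35 passed, Tnfrsf1b and Ptges, beside 3.18% of all genes, and with arrays centred and scaled 0 passed, beside 0.792%. Among brighter genes 1 of the 17 above the median level passed, beside 4.47%, and 0 of the 9 above the receptor-gene level, beside 5.69%. With every row in the fit 0 passed, beside 2.23%, and at an adjusted p under 0.1 there were 3, beside 8.18%. Without knockout 2 there were 18, beside 37.7%, and without knockout 5 there were 15, beside 50.2%, so these larger counts come with a larger share of all genes.

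**Figure D4:**
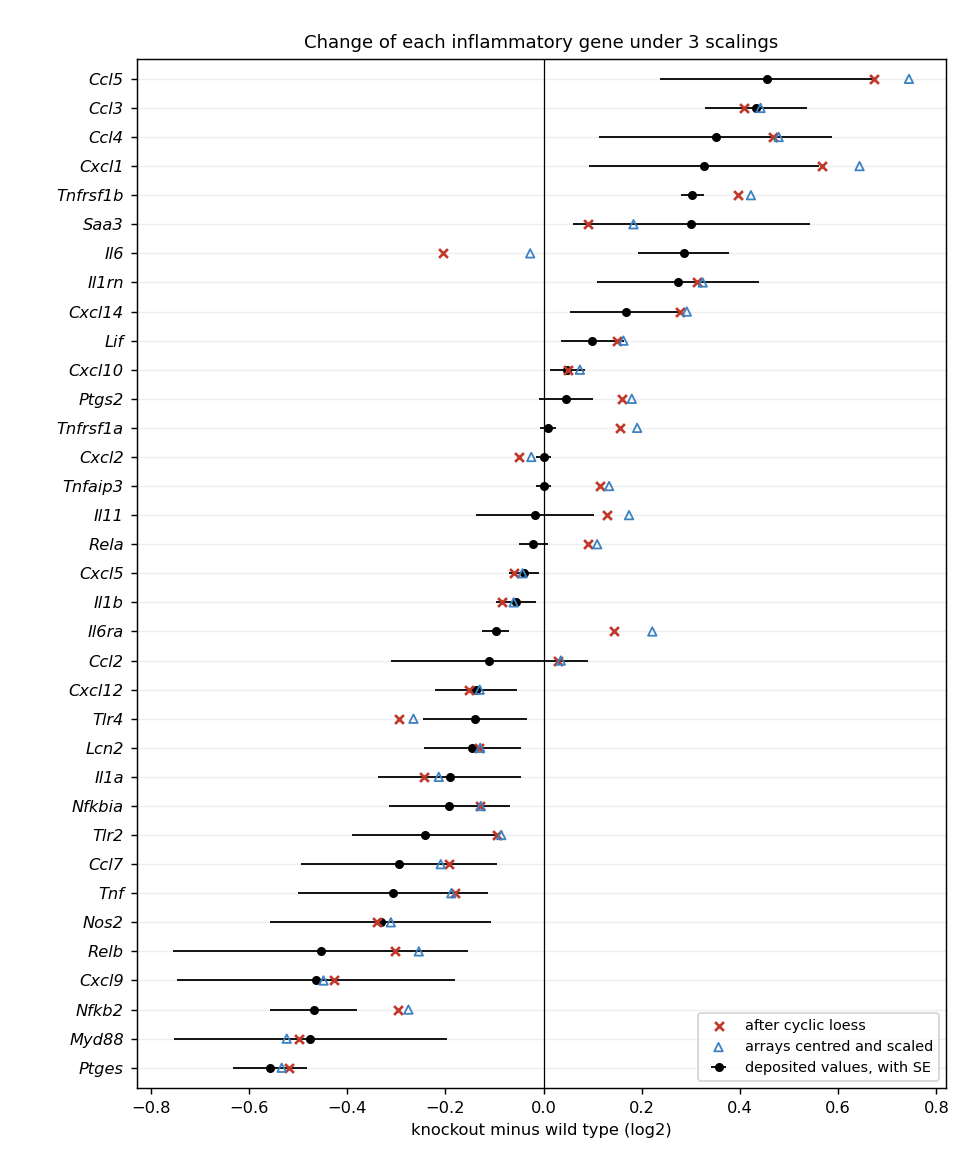
Change of each of the 35 inflammatory genes, knockout minus wild type, from the deposited values (black points, bars show 1 SE from limma), under cyclic loess (red crosses) and when arrays were centred and scaled (blue triangles). Il6 and Il6ra lie on different sides of 0 under different scalings, while Ptges stays between -0.56 and -0.52.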

How the data were processed

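Total RNA of 5 mice was measured on Affymetrix mouse gene 1.0 ST arrays, 1 array per mouse. The authors deposited log2 signals made with Affymetrix Expression Console and RMA, per the submitters' processing notes. Software versions and any build: not given in the sources used here. RMA as usually run quantile-normalises arrays and summarises probes by median polish, which can return identical values for several arrays. Its settings here are not stated, and the deposited gene values differed between arrays in median and SD. Of 35556 rows, 21789 had 1 gene symbol in the platform's annotation, and the row of highest mean stood for a gene. Nothing was filtered on low values in the main test; 17 of the 35 genes were above the median of gene means (5.13) and 9 above the 95th percentile (5.57) of 1194 olfactory and vomeronasal receptor genes.

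Knockout and wild type were compared with limma 3.58.1 (lmFit and eBayes) in R 4.3.3, two-sided, with Benjamini-Hochberg adjustment over 19938 genes and a threshold of 0.05. The fit was run on simulated data with normal noise of the same SD on every array of a gene. These data held no identical values and no wider spread in knockout, so the run does not check calls on such genes. Precision is limited by 2 and 3 arrays. P-values measure the spread between these arrays only. Members and lists were chosen with earlier results of these data known. Genes named were the whole set, Ddr1, the pathway genes and cell markers past the threshold, the pathway gene of lowest p in each group, and those said to be chosen later. The osteoblast (summed signal 323 and 390 in knockout, 363 to 369 in wild type), osteoclast (214 and 287, 281 to 290), fibroblast and tendon (396 and 523, 575 to 624), endothelial (212 and 211, 228 to 240), skeletal muscle (404 and 479, 511 to 554), erythroid (119 and 90.8, 112) and mast cell (181 and 205, 186 to 190) marker lists held no further call. Alternatives covered array date, filters, rows, normalisation, variance model, array weights, threshold and each array left out.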

Additional observations from a re-analysis of the deposited data

How the results depend on the processing

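Counts of genes past the threshold moved with the settings. In limma 0 of all genes passed with the array date as a block, with quantile normalisation, after cyclic loess and with array weights, where 3829, 3761, 3919 and 1917 had an unadjusted p under 0.05. The count was 446 and 329 among the brighter genes of the filters, 158 with arrays centred and scaled, 445 with all rows in the fit and 1630 at an adjusted p under 0.1. Leaving out an array gave 0 to 9999. Of the 35 inflammatory genes, 0 passed with the date block, the receptor filter (9 genes left, without Tnfrsf1b), quantile normalisation, cyclic loess, centring with scaling, array weights or all rows, with 7, 2, 10, 8, 7, 4 and 5 at an unadjusted p under 0.05. There were 2 with arrays centred, 3 at an adjusted p under 0.1 (Tnfrsf1b, Ptges and Nfkb2), and 0 to 18 with an array left out: 18 without knockout 2 and 15 without knockout 5, when the spread of the lone knockout array was taken from wild type (37.7% and 50.2% of all genes were then called), and 0 without any 1 wild-type array. Of the 57 pathway genes, 0 passed under both filters, the date block, quantile normalisation, cyclic loess, centring with and without scaling and array weights, 4 at an adjusted p under 0.1, and 0 to 24 with an array left out. The causes were not tested.

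The set's median change stayed within the spread between arrays (SD 0.135) under every alternative run, from -0.098 with the receptor filter to 0.033 with arrays centred. Of 621 gene values under alternatives, 560 had the sign of the deposited change, 28 had the opposite sign and 33 were 0 on one side of the comparison. The threshold was newly passed by 32, 17 without knockout 2, 14 without knockout 5 and Ptges with arrays centred, and 9 calls were lost, all of Tnfrsf1b. Of the opposite signs, 4 were differences within an array date, for Il11 (0.159), Cxcl9 (0.0036), Ccl2 (0.185) and Saa3 (-0.056). After quantile normalisation, cyclic loess and centring with scaling, Il6 was -0.30, -0.20 and -0.027, Il6ra 0.082, 0.14 and 0.22, Il11 0.12, 0.13 and 0.17, Ccl2 0.015, 0.030 and 0.035, and Rela 0.0999, 0.091 and 0.11. With arrays centred, Il1b was 0.016, Il11 0.055, Cxcl5 0.033 and Rela 0.051, and with array weights Il11 was 0.069. Without knockout 2 or 5, Il1a was -0.40 or 0.020, Il11 -0.19 or 0.159, Ccl2 0.185 or -0.41 and Saa3 -0.056 or 0.66. No paired analysis was possible because the groups share no replicate number; the array date, which arrays of both groups share, was fitted as a block instead.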

Other observations

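In 4 of the 57 pathway genes the knockout mice lay on opposite sides of the wild-type range, or 7.02%, beside 13.9% of all genes. They were chosen after their values were seen. Il6st, the signalling chain shared by the receptors for interleukin-6, interleukin-11 and Lif, read 5.30 in knockout 2 and 6.19 in knockout 5 around 5.68 on each wild-type array. Osmr, the receptor chain for oncostatin M that pairs with it, was at 4.15 and 4.62 around a wild-type value of 4.40, and Traf6, the ubiquitin ligase below Myd88, was at 5.20 and 5.53 around 5.45. In all 3 knockout 2 was the low mouse and knockout 5 the high one. Birc2, an inhibitor of apoptosis that keeps Map3k14 low, went the other way, at 5.90 in knockout 2 and 5.52 in knockout 5 around 5.76. None of these genes passed limma's test (adjusted p from 0.617 to 1).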
